A study of Mus musculus with 10 samples.

Results

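Transcripts of 6 genes of the Ly6 superfamily, Ly6c1, Ly6c2, Ly6a, Ly6e, Gpihbp1 and Cd59a, out of 56748 gene identifiers in the count tables, were followed through the whole hearts of trained and sedentary mice. The genes were taken by name and matched to Ensembl identifiers through GENCODE. They had been chosen on the counts of these hearts, with the difference between the 2 groups known, so their own levels and fold changes in this contrast are a description and carry no test. RNA sequencing had been performed on 10 hearts, 1 library of poly-A RNA per mouse, atria and ventricles together. All mice were wild-type (WT) male C57BL/6 animals that entered the study at 8 weeks of age and the groups were of the same age. The 5 training mice (Exercise) ran on a treadmill at 15 m/min for 120 min a day, 5 days a week, for 8 weeks after acclimatization, and the 5 Sedentary mice did not run.

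Proteins of this superfamily are small and share the Ly6/uPAR fold, a flat domain of finger-like loops held together by disulfide bonds. Most of them are tethered to the outer leaflet of the cell membrane by a glycosylphosphatidylinositol (GPI) anchor. In the heart several of them sit on the endothelium: GPIHBP1 picks up lipoprotein lipase (LPL) from the interstitium and carries it across capillary endothelial cells to the lumen, where the enzyme releases fatty acids for the cardiomyocytes. Ly6c1 and Ly6a (Sca-1) mark microvascular endothelium in mice, Ly6c2 encodes the Ly6C antigen of inflammatory monocytes, Ly6e is an interferon-inducible gene, and CD59a shields cells from the membrane attack complex of complement.

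Of the 6 genes, 5 lie on chromosome 15 (GRCm39): Ly6e on the plus strand at chr15:74826860-74847454, Ly6a on the minus strand at chr15:74863840-74869880, Ly6c1 on the minus strand at chr15:74915847-74920686, Ly6c2 on the minus strand at chr15:74980003-74988467 and Gpihbp1 on the plus strand at chr15:75468474-75471331. Cd59a lies apart on the plus strand of chromosome 2, at chr2:103926132-103947029. All are annotated as protein coding.

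Ly6c1 and Ly6c2 are near-identical copies, which decides how 100-base single reads can be assigned to them. Their coding sequences (Ly6c1-201, within chr15:74917251-74920360, and Ly6c2-201, within chr15:74980392-74983516, both GRCm39, minus strand, 3 coding exons each) are 396 bases long and differ at 9 positions, an identity of 97.7%. The first 255 coding bases of each are shown from the start codon on because they hold 7 of the 9 differences and the longest identical run; capitals mark the bases that differ between the copies.
Ly6c1: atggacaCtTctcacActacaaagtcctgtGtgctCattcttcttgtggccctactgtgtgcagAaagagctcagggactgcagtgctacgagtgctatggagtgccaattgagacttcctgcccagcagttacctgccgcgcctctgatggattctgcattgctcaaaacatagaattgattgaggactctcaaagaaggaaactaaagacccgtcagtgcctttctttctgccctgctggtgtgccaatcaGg
Ly6c2: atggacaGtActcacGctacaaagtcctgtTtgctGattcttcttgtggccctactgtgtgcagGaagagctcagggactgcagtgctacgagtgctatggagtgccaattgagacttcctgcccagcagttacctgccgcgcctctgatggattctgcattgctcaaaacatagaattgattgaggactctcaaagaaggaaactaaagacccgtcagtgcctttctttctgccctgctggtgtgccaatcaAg
Counted from the first base of the start codon, the differences are C8G, T10A, A16G, G31T, C36G, A65G and G254A, with the base of Ly6c1 first. The 188 bases from position 66 to 253 are the same in both genes, so a read that lies inside them fits either copy. Ly6a is the next relative, with 82.0% identity to the Ly6c1 coding sequence and no identical run longer than 48 bases. Cd59a and its copy Cd59b are 75.1% identical, with a run of up to 47 bases. The pairs that join Ly6e, Gpihbp1, Cd59a or Cd59b to any other of these genes have between 35.2% and 50.7% identity and no run over 8 bases.

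Of the 745 stretches of 100 bases in the Ly6c1-201 transcript, 114 (15.3%) also occurred in a Ly6c2 transcript and 0 in a Ly6a transcript. Over all annotated Ly6c1 transcripts, 173 of 1801 stretches also occurred in a Ly6c2 transcript and 24 in a Ly6a transcript. In Cd59a-201, 226 of 1606 stretches (14.1%) also occurred in Cd59b, all of them in the 3′ UTR. No stretch of the annotated Gpihbp1 transcripts, 0 of 2817, was found in another gene. The GENCODE M39 models of Ly6a and Ly6e run longer than the transcript lengths in the deposited tables, so the share of their stretches is not given. Stretches of Ly6a also occurred in the genes Gm28068 and Ly6c1, in part at another place in the genome. A read that fits more than 1 place has no unique position, and counting by strand does not change that. Stretches of Ly6e also occurred in transcripts of Gm62552, and 0 lay elsewhere in the genome. Reads on the strand opposite to the gene made up at most 0.238% of the counts of any member.

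STAR had counted reads that map to 1 place only, whereas RSEM shares a read that fits several genes between them. Summed over the hearts, RSEM gave Ly6c1 1.24 times and Cd59a 1.14 times the STAR count, the 95.1th and 93.7th percentile of the 8493 genes that averaged 10 CPM (counts scaled to a common library size) or more, whose median ratio was 0.970. Ly6a (0.982), Ly6e (0.987) and Gpihbp1 (0.983) were near that median. Cd59b received at most 54.0 expected counts against at most 56 STAR counts in a heart, so the added Cd59a reads came with no gain for its copy.

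Ly6c2 was at the limit of detection. It had 6, 6, 5, 4 and 5 unique reads in the training hearts 1 to 5 and 4, 4, 5, 5 and 6 in the sedentary hearts, in libraries of 29461697 to 39431030 counts. RSEM raised these to between 30.8 and 63.9 expected counts. The Ly6c2 share of all reads on the pair was thus between 0.104% and 0.216% in unique counts and between 0.853% and 1.79% in expected counts. The length that RSEM gave to Ly6c2 was 2680 bases in 9 of 10 hearts and 2320 in the last, and 2680 bases is the length of Ly6c2-202, a transcript annotated with a retained intron. The 3 coding transcripts of Ly6c2 are between 815 and 868 bases long, and as the RSEM length is a weighted mean over transcripts, 2680 leaves them no weight in those 9 hearts. The groups overlapped in both tables, and Ly6c2 did not pass the filter on low counts. Without that filter its log2 fold change was 0.21 with a standard error (SE) of 0.41, and in expected counts it was 0.019 (SE 0.22). Markers of monocytes, in which Ly6c2 is known to be expressed, summed to between 74.6 and 112 CPM in training and between 72.8 and 134 CPM in sedentary hearts over 6 genes, and those of T cells to between 1.69 and 2.95 CPM in all hearts. Of the 5 monocyte and 2 T cell markers tested, 0 were called by edgeR or DESeq2 and 0 had an unadjusted p under 0.05. Ccr2, the chemokine receptor of inflammatory monocytes, had 3.21 ± 0.704 CPM after training and 3.18 ± 1.14 CPM without it (SD, n = 5 each).

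The promoters of the pair are shown because 1 copy was read between 2456 and 3849 times per heart and the other was almost silent. Whether the promoters have a part in that difference was not tested. RefSeq starts (GRCm38.p6) were available for 3 of the 6 members, with 2 each for Ly6c1 and Ly6c2 and 1 for Cd59a. The 250 bases before the outermost start are chr15:75048838-75049087 for Ly6c1 and chr15:75111972-75112221 for Ly6c2, both on the minus strand; capitals mark TATAAA and CCAAT.
Ly6c1 promoter: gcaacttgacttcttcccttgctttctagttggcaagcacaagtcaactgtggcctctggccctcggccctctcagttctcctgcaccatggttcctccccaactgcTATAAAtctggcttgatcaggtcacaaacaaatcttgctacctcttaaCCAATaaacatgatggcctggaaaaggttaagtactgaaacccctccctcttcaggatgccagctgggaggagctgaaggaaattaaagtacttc
Ly6c2 promoter: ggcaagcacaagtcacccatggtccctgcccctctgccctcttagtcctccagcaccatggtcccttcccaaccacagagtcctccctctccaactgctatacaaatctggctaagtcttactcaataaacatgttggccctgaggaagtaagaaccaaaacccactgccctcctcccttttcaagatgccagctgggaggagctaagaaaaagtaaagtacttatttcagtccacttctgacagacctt
Over 300 bases, from 250 before to 50 after the start, these promoters were 62.3% identical. The other pairings of a Ly6c1 with a Ly6c2 window had between 38.2% and 48.9% identity. Searched on both strands, TATAAA was present in the Ly6c1 window shown at position -143 and CCAAT at -95. Neither was in the other Ly6c1 window or in the Ly6c2 windows. TATAAA occurred in 13.6% and CCAAT in 37.4% of 32851 such windows. The interferon-stimulated response element, searched as 2 copies of GAAA with 2 bases between them, occurred in the Cd59a window and in 3.44% of all windows. The interferon-gamma activated site TTCNNNGAA (8.30% of windows), the ETS motif CAGGAAG (13.3%) and the GATA motif AGATAA (11.2%) were in none of the 5 windows of the members.

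Compared per transcript length, in TPM, which corrects for length and library size, Ly6e and Ly6c1 were the most abundant members. Ly6e had a median of 175 TPM over the 10 hearts (139 to 197) and Ly6c1 of 172 TPM (149 to 197), and these levels did not separate: Ly6e was above Ly6c1 in 4 of 5 training hearts and in 0 of 5 sedentary hearts. Ly6a followed with 135 TPM (107 to 167) and Gpihbp1 with 84.2 TPM (69.6 to 108). Cd59a had 40.1 TPM (36.1 to 45.7) and Ly6c2 0.465 TPM (0.370 to 0.930). From Ly6c1 downwards each gene was above the next in all 10 hearts, although the ranges of Ly6c1 and Ly6a, and of Ly6a and Gpihbp1, overlapped across hearts. Of 44 other Ly6/uPAR genes, 35 had at most 10 reads in every heart and 17 had none; the most abundant, Lynx1, which encodes a modulator of nicotinic acetylcholine receptors, had a median of 75.0 TPM.

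Gpihbp1 had the largest difference of the members. Training hearts 1 to 5 had 56.3, 51.9, 51.0, 49.8 and 57.5 CPM, and sedentary hearts 1 to 5 had 62.1, 78.9, 64.8, 80.7 and 85.0 CPM. Every training heart was below every sedentary heart, and sedentary hearts 1 and 3 were closest to the training hearts. The means were 53.3 ± 3.40 and 74.3 ± 10.2 CPM (SD, n = 5 each), a log2 fold change of -0.48 (SE 0.082), a change of -28.3% in the mean.

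For Ly6c1, training hearts 1 to 5 had 81.6, 79.5, 76.7, 76.4 and 81.5 CPM and sedentary hearts 1 to 5 had 95.6, 100.0, 99.5, 91.2 and 97.7 CPM. The groups did not overlap and had the smallest spread relative to their means among the members tested, with means of 79.1 ± 2.49 and 96.8 ± 3.60 CPM (SD, n = 5 each). The log2 fold change was -0.29 (SE 0.039) in unique counts and -0.29 (SE 0.036) in expected counts. Summing Ly6c1 and Ly6c2 before the fit, so that no read has to be placed on 1 copy, also gave -0.29 in either table.

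For Cd59a the values were 50.4, 47.5, 43.1, 46.7 and 50.2 CPM in training hearts 1 to 5, against 53.8, 59.0, 59.1, 55.7 and 56.4 CPM in sedentary hearts 1 to 5. Here too the groups did not overlap, with means of 47.6 ± 2.96 and 56.8 ± 2.30 CPM (SD, n = 5 each). The log2 fold change was -0.26 (SE 0.049) in unique counts and -0.25 (SE 0.048) in expected counts. In TPM the groups overlapped and the difference of mean log2(TPM + 1) was -0.14, on a scale where the median gene shifted by 0.053.

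Ly6a and Ly6e did not separate the groups. Ly6a ranged from 84.5 to 109.9 CPM with training, heart 2 being highest, and from 80.5 to 117 CPM in the sedentary group, with hearts 4 and 5 (80.5 and 89.0 CPM) apart from the other three (111 to 117 CPM). Its log2 fold change was -0.13 (SE 0.10). Ly6e ranged from 124 to 157 CPM with training and from 129.8 to 157 CPM without. Its log2 fold change was -0.09 (SE 0.069). On the log2(TPM + 1) scale its difference was 0.06, near the shift of 0.053 of the median gene on that scale. The transcript length that RSEM gave to Ly6e was 927 to 955 bases in the training hearts and 962 to 1028 bases in the sedentary hearts, without overlap. Lengths did not overlap between the groups for 3.29% of 7875 genes whose length varied.

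**Figure D1:**
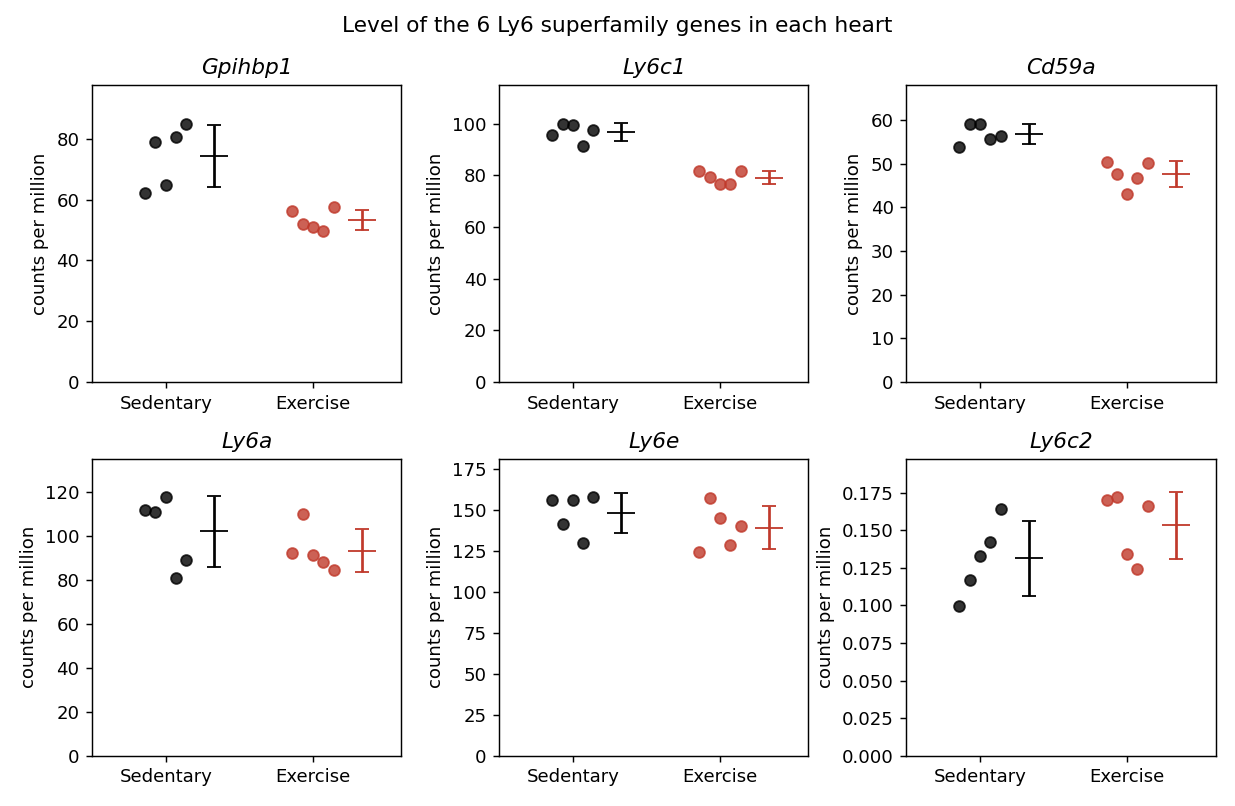
Level in CPM (y axis, from 0) of the 6 genes in each sedentary (black) and training (red) heart, with the group mean and SD beside the points. Gpihbp1, Ly6c1 and Cd59a are lower in all 5 training hearts than in any sedentary heart, Ly6a and Ly6e overlap, and Ly6c2 stays at or below 0.172 CPM.

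Of the 5 members tested, 3 (Ly6c1, Gpihbp1 and Cd59a) were below a false discovery rate (FDR) of 0.1 in edgeR's quasi-likelihood test, all lower in training hearts, where 7.01% of 15454 genes were called, 4.26% lower and 2.75% higher. The same 3 did not overlap between the groups, whereas 5.06% of all genes tested did not overlap, 2.94% lower and 2.12% higher in training hearts. In expected counts the same 3 were called, of 6 fitted, against 6.21% of 15899 genes. As the contrast served to choose the genes, nothing is read from these counts. Leaving out each heart in turn kept the log2 fold change between -0.54 and -0.43 for Gpihbp1, -0.31 and -0.28 for Ly6c1 and -0.28 and -0.22 for Cd59a. With library totals in place of TMM scaling the changes were -0.42, -0.24 and -0.20.

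**Figure D2:**
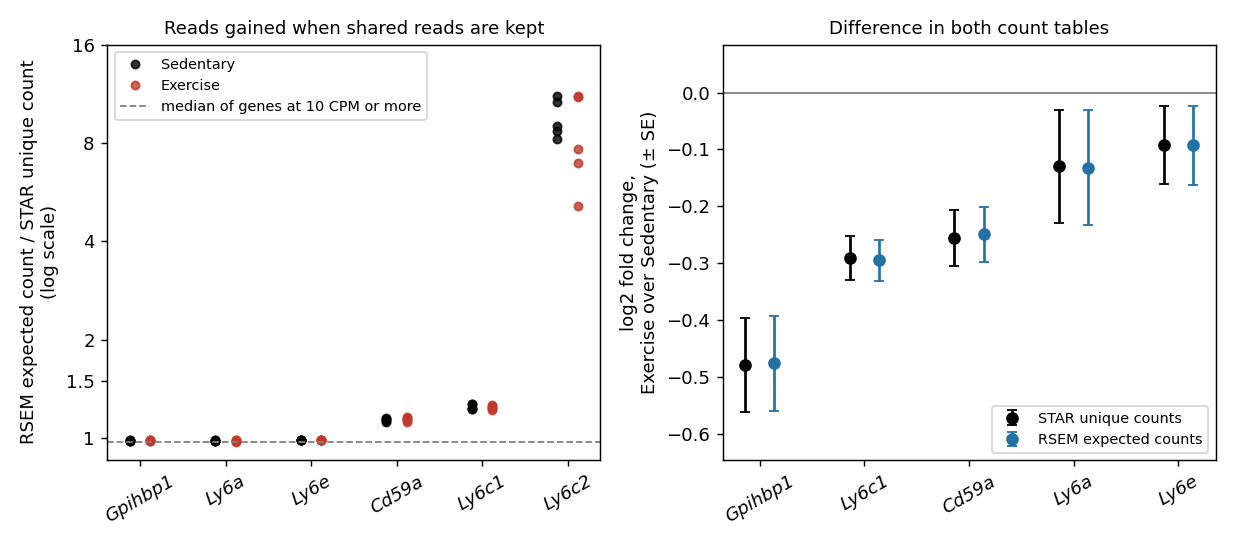
Left, RSEM expected count over STAR unique count in each heart (log axis), with the median of 8493 genes as a dashed line; right, log2 fold change of training over sedentary hearts ± SE in both tables. Ly6c1 (1.24) and Cd59a (1.14) lie above the other abundant members and Ly6c2 (8.81) far above, while the fold changes of the 5 tested genes are nearly the same in both tables.

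Whole-heart RNA cannot tell fewer endothelial cells from less RNA per cell. A score of 27 pan-endothelial markers (mean centred log2 CPM, none of them a member) differed by -0.065 in the training hearts, without overlap of the groups (p = 0.00794 by an exact two-sided permutation test, the smallest that 5 against 5 hearts allow). Of these markers, 5 were lower and 1 higher at that FDR, with a median log2 fold change of -0.09 beside 0.00026 over all genes. Without sedentary heart 1 the lower markers numbered 9, and without training heart 1 or 3 or sedentary heart 2, 3, 4 or 5 they numbered 3, as they did with library totals in place of TMM scaling (median -0.03). By sign, 15 of the 27 markers were lower and 12 higher, and the one called higher was Clec14a (log2 fold change 0.30, adjusted p = 0.0620 in edgeR), which was not called without training heart 3 or 4 or sedentary heart 3 or 4. The defining markers Pecam1 and Cdh5, both not called, were at 219 ± 11.7 against 233 ± 10.1 CPM and at 173 ± 7.41 against 192 ± 18.7 CPM (SD, n = 5 each), with log2 fold changes of -0.09 (SE 0.046) and -0.15 (SE 0.060), and edgeR adjusted p-values of 0.306 and 0.190. Relative to the score of the same heart, Gpihbp1 differed by -0.40 on the log2 scale and Ly6c1 by -0.22, both without overlap between the groups, whereas Cd59a (-0.19), Ly6a (-0.05) and Ly6e (-0.03) overlapped. With the score as a term of the fit, log2 fold changes were -0.29 (SE 0.058) for Ly6c1, -0.36 (SE 0.12) for Gpihbp1 and -0.29 (SE 0.073) for Cd59a, and Ly6c1 alone remained among the 0.925% of genes called. Atrial markers also differed: their score was higher by 0.70 after training (p = 0.0476 by an exact two-sided permutation test), and with it as a term the changes were -0.25 (SE 0.049) for Ly6c1, -0.33 (SE 0.086) for Gpihbp1 and -0.20 (SE 0.059) for Cd59a, with Ly6c1 alone among the 0.815% of genes called. Of markers of other cells, 3 of 10 for fibroblasts were higher (Gsn, Pdgfra and Lum; the list summed to between 3160 and 4100 CPM in training and between 2870 and 3309 CPM in sedentary hearts), of 6 for mural cells Tagln was higher and Rgs5 lower, of 5 for cardiomyocytes Actc1 was lower and of 5 for atria Sln was higher. By sign, all 5 cardiomyocyte markers were lower, with a median log2 fold change of -0.11. They summed to between 47706 and 50352 CPM in training and between 50750 and 57794 CPM in sedentary hearts, without overlap. All 5 atrial markers were higher (median 0.50), and 8 of the 10 fibroblast markers were higher and 2 lower (median 0.16). The fibroblast score was higher by 0.17 after training, with overlap (p = 0.0794 by an exact two-sided permutation test). The marker lists were drawn up with earlier results of these data known. The p-values of their scores are not adjusted and carry that limit. Of 5 adipocyte markers 0 were called by edgeR or DESeq2, and 0 had an unadjusted p under 0.05. The part of these cells in the differences of the members was not tested. The endothelial score was at most -0.0023 in training and at least -0.00028 in sedentary hearts. A fit with that score therefore cannot part it fully from the group, and the atrial score differed between the groups too. As the contrast served to choose the members, nothing is read from their calls in these fits.

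Capillary endothelial genes were mostly lower in training hearts. Of 12 genes on that list, 7 were lower and 1 was higher at an FDR below 0.1, against 4.26% and 2.75% of all genes, with a median log2 fold change of -0.23. Car4, a GPI-anchored carbonic anhydrase on the capillary surface, fell from 20.7 ± 1.14 to 13.8 ± 2.25 CPM (log2 fold change -0.59, adjusted p = 0.00871). Rgcc changed by -0.85 (adjusted p = 0.0252), Timp4, an inhibitor of matrix metalloproteinases, by -0.50 (adjusted p = 0.0187) and Cd300lg by -0.26 (adjusted p = 0.0231). Meox2, a transcription factor of the heart endothelium, was the gene that rose (0.31, adjusted p = 0.0852). Arterial genes went both ways, with Fbln5 (0.26) and Bmx (0.42) higher and Sema3g (-0.18) lower among 10, and of 9 venous and endocardial genes Cytl1 (0.46) and Smoc1 (0.48) were higher. By sign 8 of those 9 were above 0, with a median of 0.26, and 6 had an unadjusted p under 0.05 in edgeR. Of 7 lymphatic endothelial genes, 0 were called by edgeR or DESeq2 and 0 had an unadjusted p under 0.05. The adjusted p-values here are Benjamini-Hochberg values over all genes from the quasi-likelihood test of edgeR. With the endothelial score as a term 0 of the 12 capillary genes were called by edgeR, 7 having an unadjusted p under 0.05, and with the atrial score 1 was called and 8 were under that p, their medians being -0.24 and -0.22. With 1 heart left out the lower genes numbered 6 or 7, and Meox2 was not called without training heart 3, 4 or 5 or sedentary heart 2, 3 or 4, nor in expected counts (0.31, adjusted p = 0.112), where 0 capillary genes were called higher and 7 lower by edgeR.

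**Figure D3:**
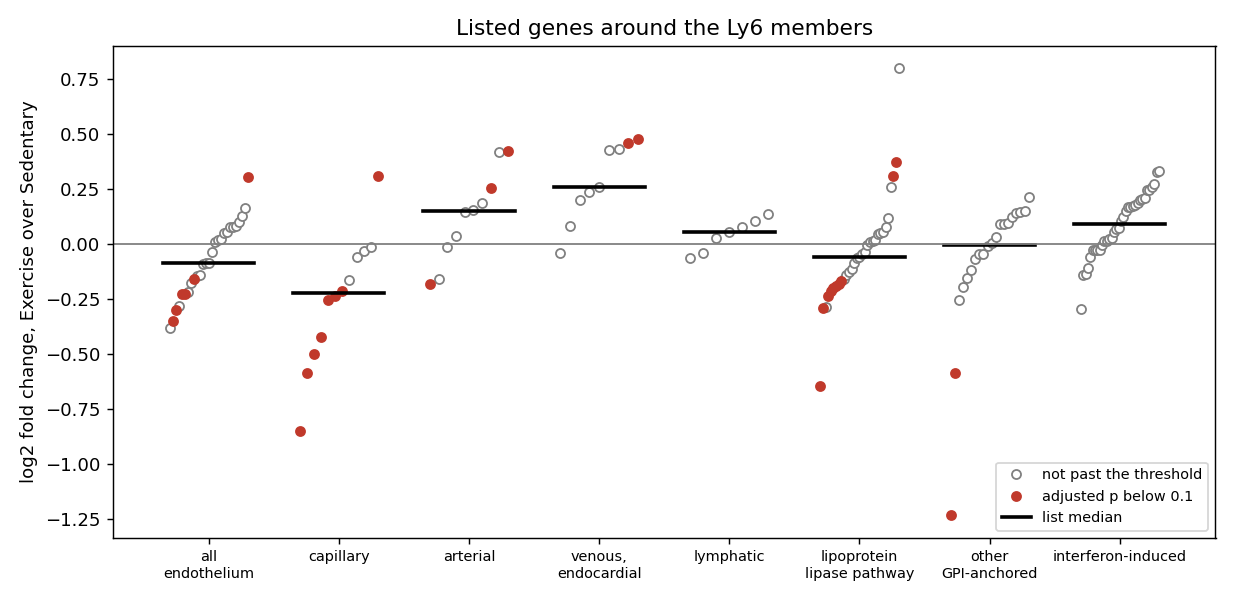
Log2 fold change of training over sedentary hearts (y axis) for the genes of 8 lists, with those at an adjusted p below 0.1 filled in red and the list median as a black bar. The capillary median is -0.23, the pan-endothelial median -0.09 and the venous and endocardial median 0.26.

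The partners of GPIHBP1 in the handling of triglyceride-rich lipoproteins were measured on a list of 31 tested genes. The list also held fatty acid transporters, VEGF-B and its receptors, heparan sulfate enzymes and transcription factors. Of the 31 genes, 8 were lower and 2 higher, against 4.26% and 2.75% of all genes, with a median log2 fold change of -0.06. Cd36, Fabp4 and Meox2, called here, were on the capillary list too, so the lists are not independent. Lpl itself, the enzyme that GPIHBP1 binds, was at 5233 ± 362 CPM with and 5849 ± 183 CPM without training (log2 fold change -0.16, SE 0.055, adjusted p = 0.126) and the groups did not overlap. It missed the threshold in this edgeR test, and passed it in DESeq2 (adjusted p = 0.0318) and in the edgeR test without sedentary heart 1 (adjusted p = 0.0917). Cd36 and Fabp4, which take up and carry fatty acids in capillary endothelium, fell by 0.21 and 0.24 on the log2 scale (adjusted p = 0.0475 and 0.0305), and Furin, a protease that cleaves LPL, fell by 0.20 (adjusted p = 0.0482). Angptl4, the inhibitor of LPL induced by fasting, had a log2 fold change of -0.29 (SE 0.25, adjusted p = 0.571) with overlapping groups. Apoe, a ligand for lipoprotein uptake, rose by 0.37 (adjusted p = 0.0207), and Meox2 was the other gene that rose. Without training heart 3 or 4 the lower genes of this list numbered 3 and 2, without sedentary heart 2, 3, 4 or 5 they numbered 4, 2, 5 and 4, and with library totals 3 were lower and 3 higher. With the endothelial score as a term 0 were called by edgeR, and with the atrial score 1, while 8 had an unadjusted p under 0.05 in either fit. Adjusted p-values are those of the same edgeR test.

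Genes that build the GPI anchor, which all 6 member proteins carry, showed no call in either direction: 0 of 32 passed the edgeR test and 0 that of DESeq2, 6 had an unadjusted p under 0.05, with a median log2 fold change of -0.0043. Among 20 other GPI-anchored proteins of the endothelium and heart, 2 were lower, Car4, which is also on the capillary list, and Rtn4r, the Nogo receptor. Rtn4r had 3.18 ± 0.707 CPM with and 7.52 ± 0.603 CPM without training (log2 fold change -1.24, adjusted p = 0.00117 in the same edgeR test). Complement genes and regulators, the system that CD59a restrains, gave 0 calls among 18 tested by edgeR or DESeq2, with 1 at an unadjusted p under 0.05, and Cd55, another GPI-anchored regulator, had a log2 fold change of 0.09 (SE 0.086). The copy Cd59b was near the floor, with 1.13 ± 0.163 and 1.29 ± 0.253 CPM (SD, n = 5 each). Of the 6 other Ly6/uPAR genes that passed the filter, Lynx1 alone was called, at 265 ± 8.69 against 298 ± 15.3 CPM (log2 fold change -0.17, adjusted p = 0.0501 in the same edgeR test). Its call was lost without training heart 3 or 4 or sedentary heart 2 (adjusted p = 0.108, 0.125 and 0.114), with library totals (-0.11, adjusted p = 0.107) and with the endothelial or atrial score as a term (adjusted p = 0.305 and 0.431).

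Within the groups, Ly6e followed the interferon-induced genes. After the group mean was removed from each measure, the log2 CPM of Ly6e and the score of 34 interferon-induced genes, none of them a member, correlated over the 10 hearts with Pearson r = 0.88 (exact permutation p = 0.00264) and Spearman rho = 0.92 (exact permutation p = 0.00278). Over the 15 relations computed, 5 members against 3 scores, the adjusted values were 0.0396 and 0.0417. Leaving out the 2 hearts farthest from the median score gave r = 0.82, and the relation was also past the threshold with library totals (r = 0.89) and with expected counts (r = 0.88). The score itself was 0.336 in training heart 2, where Ly6e (157 CPM) and Ly6a (109.9 CPM) were highest among the training hearts, and -0.246 in sedentary heart 4, where they were lowest among the sedentary hearts (129.8 and 80.5 CPM). For Ly6a the same relation gave r = 0.57 (exact permutation p = 0.0783, adjusted 0.293) and did not pass. Between the groups the interferon score differed by 0.082 with overlap (p = 0.468 by an exact two-sided permutation test), and 0 of the 34 genes were called by edgeR or DESeq2, 4 having an unadjusted p under 0.05, with a median log2 fold change of 0.09. Gpihbp1 and the fibroblast score gave r = -0.76 (exact permutation p = 0.0363, adjusted 0.272), and the remaining relations had adjusted permutation p-values of at least 0.293. The hearts came from 1 library pool and no batch was given, so no value within batches could be computed.

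**Figure D4:**
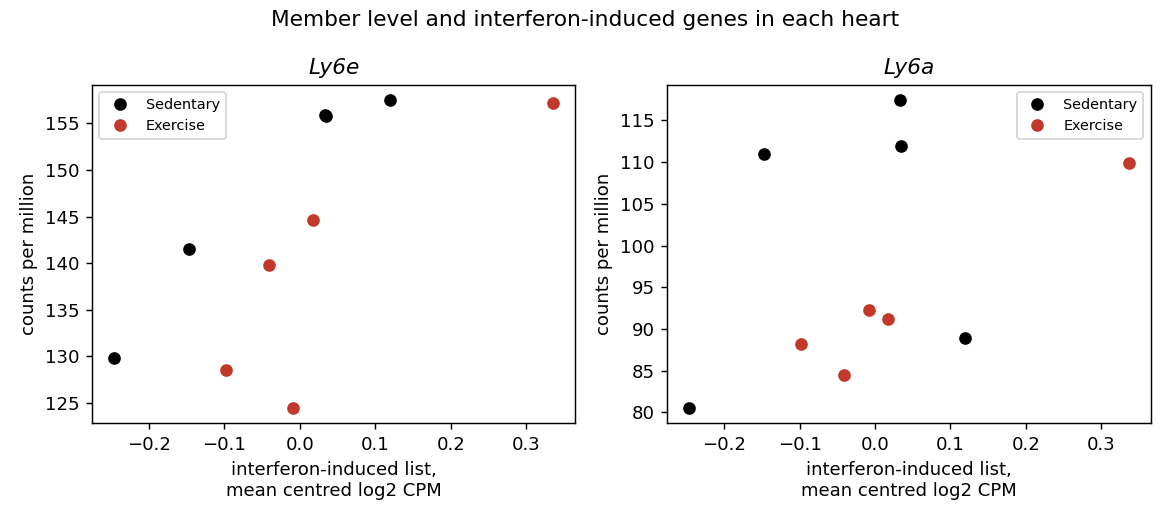
Level in CPM of Ly6e (left) and Ly6a (right) against the score of 34 interferon-induced genes in the sedentary (black) and training (red) hearts, group means not removed; sedentary hearts 1 and 3 nearly coincide for Ly6e. Training heart 2 has the highest score (0.336) and sedentary heart 4 the lowest (-0.246).

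The genes whose level followed each member most closely were sought by the highest Pearson r of group-centred log2 CPM over the 10 hearts, among the 8495 genes that averaged 10 CPM or more. They were Elk3 (0.98), Sirpa and Steap3 for Ly6e, Ugp2 (0.96), Parp10 and Ifi35 for Ly6a, Asb15 (0.97), Fgf1 and Tmem82 for Gpihbp1, Swap70 (0.92), Adprs and Ppp2r3c for Ly6c1, and Lrrc14b (0.93), Dbt and Rngtt for Cd59a. With so many genes and 10 hearts such values are a description only. No member was among the closest genes of another; the highest value between members was that of Cd59a and Ly6c1 (0.76, rank 104), and that of Gpihbp1 and Ly6a was -0.64.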

How the data were processed

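Single 100-base reads of poly-A RNA from 10 hearts, 1 directional library per mouse, were analysed. The authors deposited unnormalized gene counts of reads with a unique position, for each strand (STAR 2.7.10a, GRCm39). They also deposited expected counts, TPM and transcript lengths from RSEM 1.3.3, per the file headers; the strand setting of RSEM is not given in the sources used here. Counts of the reverse strand were used, and lines that are no gene were left out: multimapping reads were 17.9% to 19.2% of all reads. Libraries held between 29461697 and 35945417 counts in the training and between 35196993 and 39431030 in the sedentary group, which differed (exact two-sided permutation test p = 0.0238).

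In R 4.3.3 with edgeR 4.0.16, genes passing filterByExpr were scaled by TMM, fitted with group alone and called at an FDR below 0.1 by the quasi-likelihood F test with Benjamini-Hochberg adjustment. CPM use TMM-corrected totals, with a prior count of 2 for logarithms. Expected counts were rounded to whole numbers. Stretches of 100 bases, the read length, were matched exactly on both strands to GENCODE M39 transcripts and the GRCm39 genome, and promoters were from RefSeq (GRCm38.p6). Coding sequences were aligned globally. Of these steps, the edgeR fit was tested on simulated counts, as was the DESeq2 fit.

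The members and the 18 other gene lists were chosen with earlier results of these data known. Named were the members, the genes of each list past the FDR (up to 4 in each direction by adjusted p), Lpl, Angptl4, Cd36, Fabp4, Pecam1, Cdh5, Cd59b, Cd55 and Ccr2, the 3 genes closest to each member, and genes sharing stretches with a member; of these, further genes are given as counts. A gene that the rule names is not reported here. Fits with DESeq2 1.42.0, other scaling, filters and counts, the mouse number as a block, marker scores as covariates and each heart left out were tried. TPM and the summed Ly6c pair were added after seeing the data.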

Additional observations from a re-analysis of the deposited data

Results flagged for a closer look

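Among 82 groups of 5 hearts tested for 1 heart far from the other 4, over 41 genes, 4 were set apart, where chance sets apart about 1 in 20. No member was among them. Cd36 was at 1713 CPM in sedentary heart 5 and at 1867 to 1921 CPM in the other sedentary hearts. Timp4 was at 68.3 CPM in sedentary heart 1, against 82.9 to 87.2 CPM in the others. Gsn, which encodes gelsolin, was at 1685 CPM in sedentary heart 1 and at 1517 to 1557 CPM in the others. Actc1, the cardiac actin gene, was at 9516 CPM in training heart 2, against 7402 to 7777 CPM in the other training hearts.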

How the results depend on the processing

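The log2 fold changes of Gpihbp1, Ly6c1 and Cd59a kept their sign in all fits. The change of Ly6c1 was -0.24 with library totals alone. On the added log2(TPM + 1) scale, where the median gene shifted by 0.053, Cd59a changed by -0.14 and Ly6e by 0.064. Ly6c2 had 0.21 without the filter and 0.019 in expected counts. Of 15454 genes tested 1084 were called, 143 with the endothelial score and 126 with the atrial score as covariate, 505 at an FDR below 0.05, and 512 to 1490 with 1 heart left out (540 and 512 without training hearts 3 and 4, and 611, 512 and 671 without sedentary hearts 2, 3 and 4). Library totals alone turned 425 higher and 659 lower calls into 1029 and 339, as the median gene shifted by 0.053. Of the listed genes other than the members, among them the markers that make up these scores, 35 were called, 3 with the endothelial and 6 with the atrial score. Without training hearts 3 and 4 they were 20 and 19, and without sedentary hearts 2, 3 and 4 they were 20, 20 and 22; the range with 1 heart left out was 19 to 50. Cdh5, itself 1 of the 27 markers averaged into the endothelial score, turned to 0.034 with that score, so its shift towards 0 is built in. Ccr2 turned to -0.34 with the endothelial and -0.36 with the atrial score, and ranged from -0.088 to 0.192 with 1 heart left out; the cause was not tested. Of the values of single named genes over these fits, 569 kept their sign and side of the threshold, 140 fell short of it, 3 passed it and 8 turned. The mouse numbers did not pair the hearts (residual correlations of -0.097 to 0.159), and with the replicate block 1137 genes were called, 890 of them shared. With 4 to 6 unique reads of Ly6c2 per heart, the SE of its log2 fold change was 0.41 without the filter, and 0.22 in expected counts.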
